A study of Mus musculus with 6 samples.

Results

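The 10 genes Rgs5, Abcc9, Cspg4, Pdgfrb, Notch3, Mcam, Higd1b, Vtn, Steap4 and Pdgfb, known as markers of pericytes or of their recruitment, were taken by symbol from a table of 46095 mouse genes, and all 10 were found in it. RNA was sequenced from hearts in 3 libraries of STAT3cKO mice, in which the transcription factor STAT3 was deleted in cardiomyocytes, and 3 libraries of wild-type mice, titled NC by the submitters. Each library is called a heart here. The series asked which pathways that bear on heart function differ between these hearts. The labels name no Cre driver, treatment, age, sex or batch, and no label states that the libraries stem from separate animals, so the p-values may measure only technical spread.

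Pericytes are mural cells that wrap capillaries inside the basement membrane they share with the endothelium. Endothelial cells release PDGF-B, which holds pericytes on the vessel through the receptor PDGFRβ, while Notch3 signalling keeps mural cells mature. Pericytes are among the abundant non-myocyte cells of the heart and regulate capillary tone. None of the 10 genes is exclusive to them, since smooth muscle shares most of them, cardiomyocytes also express Abcc9, endothelial cells also express Mcam, and Pdgfb is made mainly by endothelial cells.

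Stat3, the targeted gene, stood at 52.9, 63.7 and 59.6 CPM (counts scaled to a common library size by TMM) in STAT3cKO replicates 3, 6 and 91, against 99.7, 85.8 and 97.5 CPM in wild type replicates 1, 3 and 4. It fell by 0.68 on the log2 scale (SE 0.10, edgeR adjusted p = 0.000677), and whole-heart RNA includes the cells in which it was not deleted. The libraries held 15416877 to 17867944 counts in STAT3cKO hearts and 16168682 to 18264052 in wild-type hearts. The Y-linked gene Ddx3y held 1091 to 1375 counts in STAT3cKO and 1514 to 1934 in wild type, and Xist at most 24 and 38 counts, so all 6 hearts held Ddx3y and little Xist.

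Of the 10 pericyte markers 6 fell in STAT3cKO hearts, 0 rose and 4 did not pass (edgeR quasi-likelihood test, adjusted p under 0.05 over 14484 genes). The 6 were Notch3, Abcc9, Cspg4, Steap4, Mcam and Rgs5, and the 4 were Pdgfb, Pdgfrb, Vtn and Higd1b. All 10 passed the low-count filter. Of all genes tested, 12.6% were lower and 13.2% higher by the same rule. For 8 of the 10 every STAT3cKO heart lay below every wild-type heart, which held for 21.5% of all genes. The median log2 fold change (STAT3cKO minus wild type throughout) was -0.54 over the 10 members, from -0.76 for Notch3 to 0.24 for Higd1b, and 0.00 over all genes tested. Together the 10 genes took at most 0.115% of counts in a STAT3cKO heart and at least 0.154% in a wild-type heart, most of it Rgs5 and Abcc9. In whole-heart RNA, fewer cells of a type and less RNA per cell cannot be told apart.

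**Figure D1:**
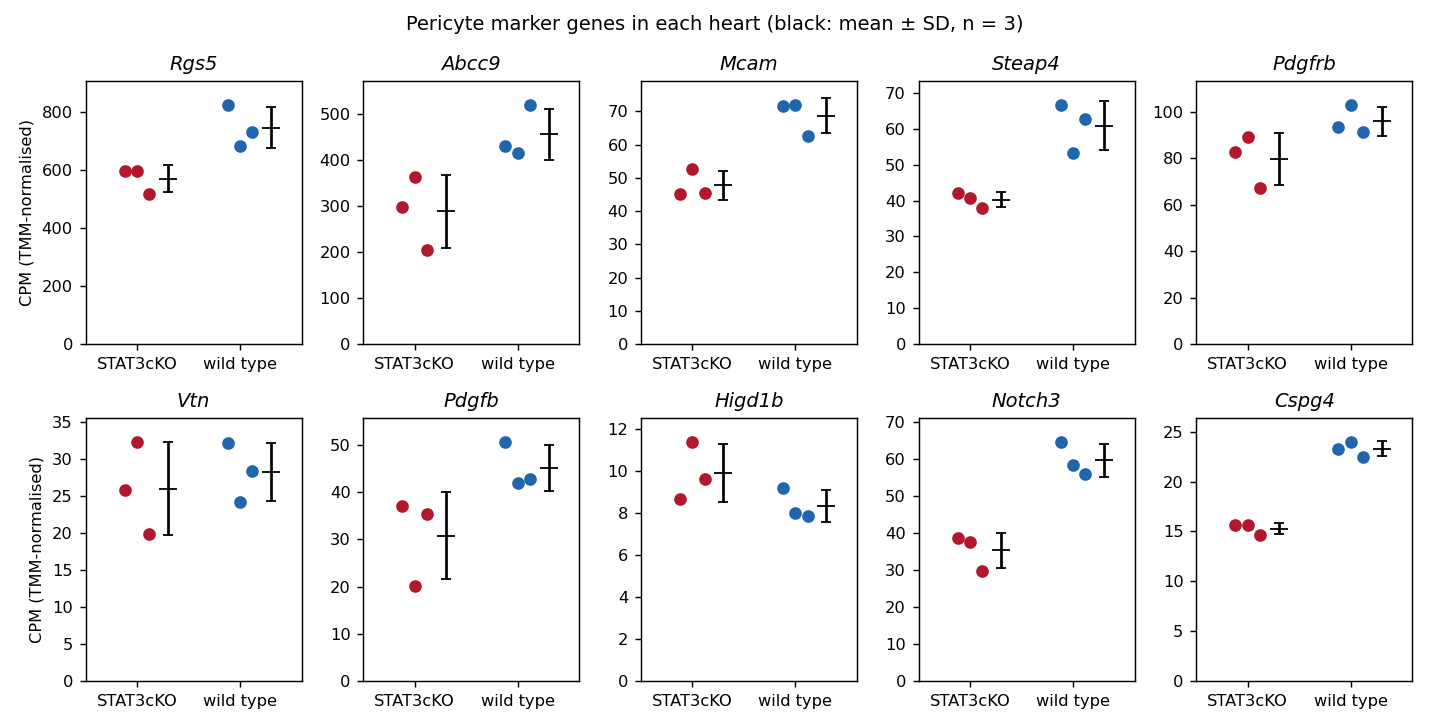
CPM of each pericyte marker in each heart, STAT3cKO in red and wild type in blue, on axes that start at 0, with the mean ± SD of 3 hearts in black and panels ordered by level per kilobase in wild type. The groups overlap in the panels of Vtn and Higd1b and in no other.

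Fold changes in these hearts also followed transcript length, and the members differ widely in it. The median log2 fold change was 0.43 in the shortest decile of genes (56 to 1173 nt) and -0.31 in the longest decile (6755 to 123179 nt). A second fit therefore entered each heart's trend on transcript length and GC content as an offset. In that fit 4 of the 10 members were lower (Notch3, Mcam, Cspg4 and Steap4) and 0 higher, against 7.75% and 10.8% of all genes, and the members' median was -0.35. Whether the length trend plays a part in the fall of the longer members was not tested further.

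The PDGF pair came first among the signalling members. Pdgfrb, the receptor tyrosine kinase that pericytes use to sense PDGF-B (GRCm38 chromosome 18, 61045127 to 61085067), stood at 82.8, 89.2 and 67.4 CPM in STAT3cKO replicates 3, 6 and 91, against 93.3, 103 and 91.4 CPM in wild type replicates 1, 3 and 4. All 3 STAT3cKO hearts were below the lowest wild-type heart, the closest of them, replicate 6, by a small margin. Its log2 fold change of -0.27 (95% interval -0.50 to -0.03) did not pass (edgeR adjusted p = 0.0886). It did pass without STAT3cKO replicate 6 (adjusted p = 0.0296), with no low-count filter (0.0327) and with scaling by library size alone (0.0118). Under the offset its log2 fold change was -0.08 (95% interval -0.30 to 0.14, adjusted p = 0.612).

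Pdgfb, the ligand (chromosome 15, 79995865 to 80024614), stood at 37.0, 20.1 and 35.3 CPM in STAT3cKO replicates 3, 6 and 91, against 50.7, 41.9 and 42.7 CPM in wild type. STAT3cKO replicate 6 was the lowest heart by a wide margin, and the difference did not pass (log2 fold change -0.55, 95% interval -1.05 to -0.05, edgeR adjusted p = 0.0997). Pdgfb passed with no low-count filter (adjusted p = 3.08e-05), with DESeq2 (0.0151), with limma-voom (0.0425) and, at a smaller log2 fold change of -0.32, without STAT3cKO replicate 6 (0.0499). Under the offset it stood at -0.59 (adjusted p = 0.0528).

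Notch3, the Notch receptor of mural cells (chromosome 17, 32120820 to 32166896), had the largest fall of the 10. It stood at 38.5, 37.5 and 29.8 CPM in STAT3cKO replicates 3, 6 and 91, against 64.6, 58.2 and 55.8 CPM in wild type. The highest STAT3cKO heart was well below the lowest wild-type heart. Notch3 fell by 40.8% (log2 fold change -0.76, SE 0.11, edgeR adjusted p = 0.000782), and it still passed under the offset (-0.47, adjusted p = 0.00828). Of its 8089 exonic bases, 488 are shared with an annotated antisense gene. The strand setting of the counting is not given, so reads of the pair cannot be told apart in that stretch. Mcam shares 17 exonic bases with an antisense gene and Abcc9 158, and these genes held 117 and 0 counts over all hearts. The antisense gene at Notch3 is absent from the count table under its symbol. The RefSeq spans of Gm38585 and Gm41568, at 447 and 24 counts over all hearts, also overlap that of Notch3.

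Cspg4 and Mcam, which encode surface proteins, both fell. Cspg4, the NG2 proteoglycan that coats pericytes and immature smooth muscle (chromosome 9, 56865104 to 56899870), stood at 15.6, 15.6 and 14.6 CPM in STAT3cKO hearts, against 23.3, 24.0 and 22.5 CPM in wild-type hearts. Its coefficient of variation was 3.84% in STAT3cKO and 3.09% in wild type, the tightest of the 10 members in both groups. Cspg4 fell by 34.3% (log2 fold change -0.61, SE 0.11, edgeR adjusted p = 0.00171), and under the offset by 0.31 on the log2 scale, at an adjusted p of 0.0476. Mcam, the adhesion molecule CD146 of mural and endothelial cells (chromosome 9, 44134658 to 44142727), stood at 45.2, 52.6 and 45.3 CPM in STAT3cKO hearts, against 71.6, 71.9 and 62.6 CPM in wild type. It fell by 30.6% (log2 fold change -0.53, SE 0.10, edgeR adjusted p = 0.00263) and hardly moved with the offset (-0.50, adjusted p = 0.00334).

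Steap4, a metalloreductase of iron and copper that is also made by adipocytes (chromosome 5, 7960472 to 7982213), stood at 42.2, 40.6 and 38.0 CPM in STAT3cKO replicates 3, 6 and 91, against 66.6, 53.2 and 62.7 CPM in wild type. No STAT3cKO heart reached the lowest wild-type heart. Steap4 fell by 33.8% (log2 fold change -0.60, SE 0.10, edgeR adjusted p = 0.00171; -0.58 and 0.0031 under the offset). Of 6 adipocyte genes 2 could be tested and neither passed, with a summed level of 39.4 to 52.4 CPM in STAT3cKO and 43.9 to 59.3 CPM in wild type, almost all of it Lipe. Cfd, the other gene tested, was at 9.01 CPM in wild type replicate 3 and at most 1.32 CPM in each of the other 5 hearts. Lep was at 0 counts in all 3 STAT3cKO hearts and 1 to 3 counts in wild type, and Adipoq at 2 to 7 counts in STAT3cKO and 6 to 27 in wild type, and their part in the fall of Steap4 was not tested.

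Notch3, Mcam, Cspg4 and Steap4 passed in each of the 16 alternative fits, and the 250 bases before the annotated start are shown for the last 3, 5′ to 3′ on the gene's strand (RefSeq, GRCm38.p6). RefSeq entries were used for 7 of the 10 members, all but Pdgfrb, Higd1b and Pdgfb. Motifs were searched on both strands, TTCNNNGAA for STAT factors, TGGGAA for the Notch mediator RBPJ and the CArG box of serum response factor, and matches are in capitals.
Steap4, chr5:7960222-7960471, plus strand: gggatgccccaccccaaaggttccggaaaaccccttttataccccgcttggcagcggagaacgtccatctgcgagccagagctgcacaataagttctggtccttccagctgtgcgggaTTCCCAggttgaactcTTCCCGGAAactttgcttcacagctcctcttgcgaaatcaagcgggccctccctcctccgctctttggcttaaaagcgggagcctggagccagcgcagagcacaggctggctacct
Cspg4, chr9:56864854-56865103, plus strand: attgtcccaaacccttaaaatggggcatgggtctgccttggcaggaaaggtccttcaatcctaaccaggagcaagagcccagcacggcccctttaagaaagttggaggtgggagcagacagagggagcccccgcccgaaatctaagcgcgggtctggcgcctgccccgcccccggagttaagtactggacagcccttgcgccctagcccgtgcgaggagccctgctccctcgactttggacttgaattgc
Mcam, chr9:44134408-44134657, plus strand: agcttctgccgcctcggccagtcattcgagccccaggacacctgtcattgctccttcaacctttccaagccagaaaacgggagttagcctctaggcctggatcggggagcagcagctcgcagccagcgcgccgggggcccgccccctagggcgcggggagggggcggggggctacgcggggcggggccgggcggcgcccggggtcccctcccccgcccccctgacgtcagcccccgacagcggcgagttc
The Steap4 window holds TTCCCGGAA, a match to the STAT motif 116 to 108 bases before the start, and an RBPJ match on the other strand, printed as TTCCCA, 132 to 127 bases before it, and these do not overlap. The Cspg4 and Mcam windows hold no match. Among the 7 windows, Steap4 alone matched the STAT motif, against 7.02% of 32851 promoter windows of the same length, and Steap4, Abcc9 and Vtn matched RBPJ, against 21.6%. None of the 7 matched the CArG box, which 1.47% of all windows hold. The 7 include the Notch3 window, whose orientation could not be checked against its transcripts. A match describes letters only and shows no binding.

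Rgs5, which speeds the shut-off of G protein signalling and is among the most abundant pericyte transcripts (chromosome 1, 169655501 to 169695813), had the highest level of the 10 per kilobase of transcript. It stood at 597, 597 and 518 CPM in STAT3cKO replicates 3, 6 and 91, against 825, 684 and 731 CPM in wild type replicates 1, 3 and 4. The groups did not overlap, though wild type replicate 1 stood above the other wild-type hearts. Rgs5 fell by 23.6% (log2 fold change -0.39, SE 0.11, edgeR adjusted p = 0.019). It missed the threshold if STAT3cKO replicate 91 (adjusted p = 0.0553) or wild type replicate 1 (0.0708) was left out, and under the offset (-0.32, 0.0684).

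Abcc9 encodes SUR2, the regulatory subunit of ATP-sensitive potassium channels, paired with the Kcnj8 pore in mural cells and the Kcnj11 pore in cardiomyocytes (chromosome 6, 142587862 to 142702766). It stood at 298, 363 and 205 CPM in STAT3cKO replicates 3, 6 and 91, against 431, 415 and 519 CPM in wild type. STAT3cKO replicates 6 and 91 lay far apart, and all 3 STAT3cKO hearts lay below every wild-type heart. Abcc9 fell by 36.5% (log2 fold change -0.66, SE 0.19, edgeR adjusted p = 0.0394). Leaving out STAT3cKO replicate 3 (adjusted p = 0.0909) or wild type replicate 1, 3 or 4 (0.0886, 0.0559 and 0.126) ended the call, as did the offset (-0.37, 0.167). Counts do not separate the cardiomyocyte from the mural part of Abcc9.

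The channel partners of Abcc9 were taken with it. Kcnj8 stood at 46.1, 39.2 and 35.8 CPM in STAT3cKO hearts, against 53.0, 45.4 and 45.7 CPM in wild-type hearts, and did not pass (log2 fold change -0.25, edgeR adjusted p = 0.117), except with library size alone (adjusted p = 0.0333). Kcnj11 was 116 ± 5.03 CPM in STAT3cKO and 114 ± 3.33 CPM in wild type (SD, n = 3 each; edgeR adjusted p = 0.827). Abcc8, which encodes the related subunit SUR1, rose to 40.7 ± 6.05 CPM in STAT3cKO, against 30.8 ± 1.66 CPM in wild type (log2 fold change 0.40, edgeR adjusted p = 0.0225). That rise was lost with library size alone (adjusted p = 0.0728) and without STAT3cKO replicate 6 (0.0611) or wild type replicate 1 (0.0734) or 4 (0.0787).

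Vtn and Higd1b were the members whose groups overlapped. Vtn encodes vitronectin, an adhesive glycoprotein of matrix and plasma (chromosome 11, 78499120 to 78502325). It stood at 25.8, 32.3 and 19.8 CPM in STAT3cKO replicates 3, 6 and 91, against 32.1, 24.2 and 28.4 CPM in wild type. STAT3cKO replicate 6 was the highest and replicate 91 the lowest of all 6 hearts. Its log2 fold change of -0.12 (95% interval -0.50 to 0.25, edgeR adjusted p = 0.623) turned to 0.05 without STAT3cKO replicate 91. Of 6 genes of hepatocytes, which secrete vitronectin, only Trf, also made elsewhere, could be tested, at 35.0 to 51.1 CPM in STAT3cKO and 52.1 to 60.2 CPM in wild type. It fell (log2 fold change -0.42, edgeR adjusted p = 0.0366), a call that was lost when any heart but STAT3cKO replicate 91 was left out (adjusted p 0.0603 to 0.126). Alb was at 0 counts in all 3 STAT3cKO hearts and 1, 0 and 0 counts in wild type, and Fgb and Serpina1a at 0 in all 6.

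Higd1b, a small mitochondrial protein of the hypoxia-inducible domain family (chromosome 11, 102835761 to 102844141), had the fewest counts of the 10, with 127 to 176 counts in STAT3cKO and 134 to 179 in wild type. It stood at 8.67, 11.4 and 9.64 CPM in STAT3cKO hearts, against 9.21, 7.99 and 7.84 CPM in wild-type hearts, and the groups crossed at STAT3cKO replicate 3. Its log2 fold change was 0.24 (95% interval -0.09 to 0.58, edgeR adjusted p = 0.268) and -0.15 under the offset (95% interval -0.47 to 0.16, adjusted p = 0.502). Its transcript of 735 nt lies in the shortest decile of genes, whose median was 0.43. The RefSeq span of Eftud2 overlaps that of Higd1b, though no GENCODE M21 gene shares exonic bases with Higd1b. The annotation used in the counting is not given, so some uncertainty in the Higd1b counts remains.

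**Figure D2:**
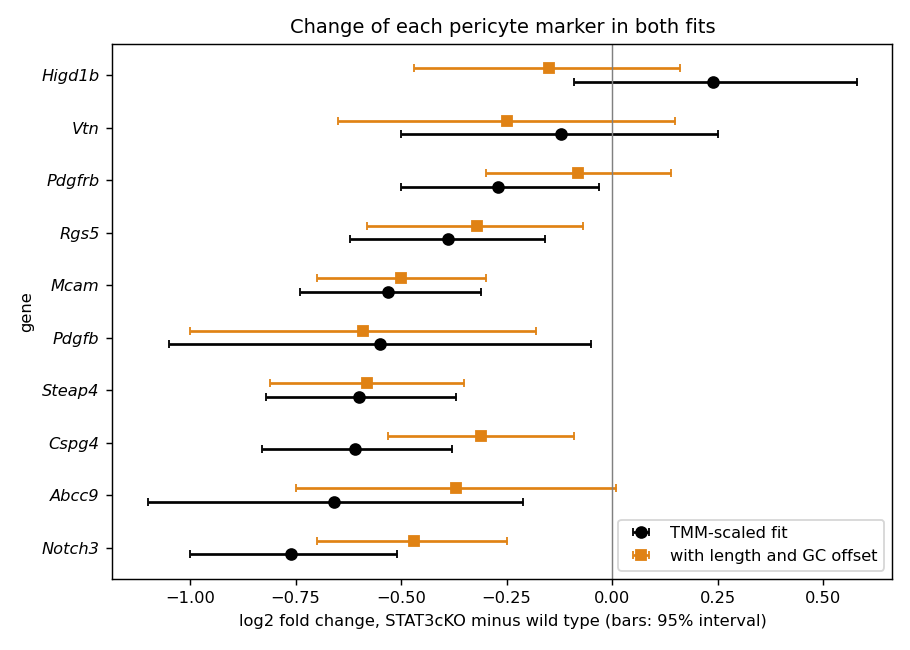
Log2 fold change of each member, STAT3cKO minus wild type, with 95% intervals, in the TMM-scaled fit (black circles) and with the length and GC offset (orange squares). Notch3, Cspg4 and Abcc9 move toward 0 with the offset, Steap4, Mcam and Pdgfb hardly move, and Higd1b changes side.

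Each member was also placed among genes of like length, as a description. Notch3, Abcc9 and Cspg4 have transcripts of 8016, 7499 and 8121 nt, in the longest decile, where 39.1% of genes were lower. Of the genes in that decile, 13.5% had a more negative log2 fold change than Notch3, 18.1% than Abcc9 and 21.3% than Cspg4. Steap4, Pdgfb and Mcam have transcripts of 3155, 2944 and 2989 nt, in decile 5 of 10, where the median was 0.03 and 8.30% of genes were lower. There, 7.14%, 8.23% and 9.02% of genes had a more negative value than Steap4, Pdgfb and Mcam. For Rgs5 that share of its decile was 15.7%, for Vtn 20.4% and for Higd1b 32.8%. Pdgfrb, at 5423 nt, was closest to its decile, with 41.3% below it and -0.27 against a median of -0.19.

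**Figure D3:**
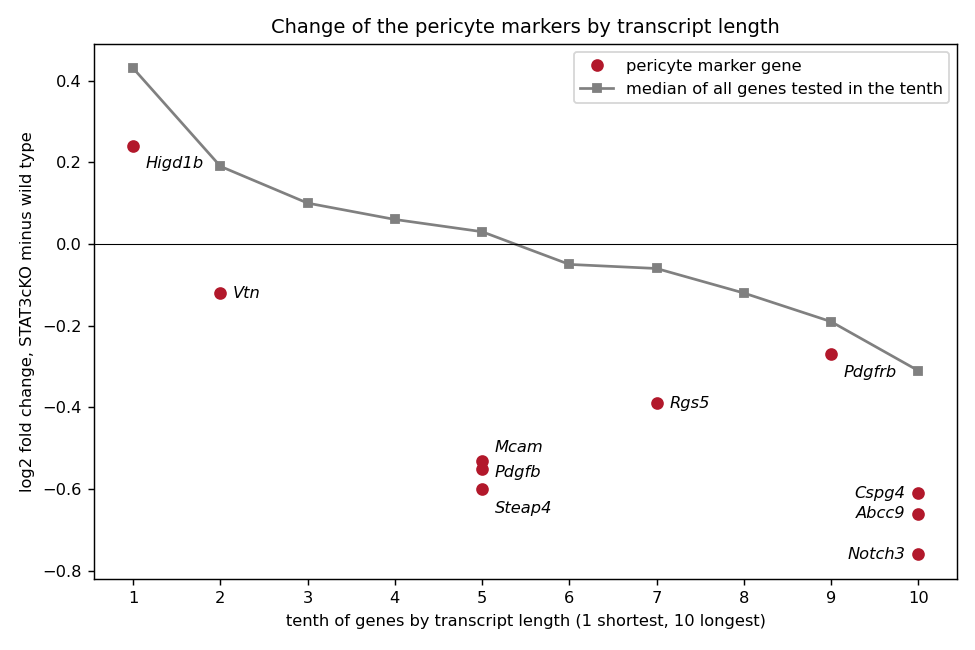
Log2 fold change of each member (red) at its decile of transcript length, with the median of all tested genes in each decile (grey). The median is 0.43 in decile 1 (shortest) and -0.31 in decile 10 (longest), and all 10 members lie below the median of their decile.

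Levels of the members could be compared with each other only per kilobase of the longest transcript. On that scale Rgs5 was first, at 139 ± 11.2 CPM per kilobase in STAT3cKO and 182 ± 17.5 in wild type (SD, n = 3 each). Abcc9 followed at 38.5 ± 10.6 in STAT3cKO and 60.7 ± 7.49 in wild type, and Mcam came next at 16.0 ± 1.42 and 23.0 ± 1.76 CPM per kilobase in STAT3cKO and wild type. At the low end, Notch3 had 4.40 ± 0.589 in STAT3cKO and 7.42 ± 0.566 in wild type, and Cspg4 had 1.88 ± 0.0724 and 2.87 ± 0.0885. In wild type, Steap4, Pdgfrb, Vtn and Pdgfb lay between 13.9 and 21.1 CPM per kilobase with overlapping hearts, so their order is not set beyond the spread. In STAT3cKO, Mcam, Vtn, Pdgfrb, Higd1b and Steap4 lay between 11.4 and 18.5 CPM per kilobase, and their order is likewise not set. Rgs5 and Abcc9 were above, and Notch3 and Cspg4 below, every other member in each heart of both groups.

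Ratios between genes of 1 heart do not depend on library scaling, and 5 were compared by a two-sided exact permutation test, in which 3 hearts against 3 cannot go below p = 0.1. The log2 ratio of Notch3 to Pdgfrb counts was -1.10, -1.25 and -1.18 in STAT3cKO replicates 3, 6 and 91, against -0.53, -0.82 and -0.71 in wild type, with no overlap (exact p = 0.1, adjusted p = 0.25). The ratio of Abcc9 to Kcnj11 was 1.42, 1.58 and 0.81 in STAT3cKO, against 1.95, 1.87 and 2.14 in wild type, again with no overlap (exact p = 0.1, adjusted p = 0.25). A ratio still carries the length trend where its transcripts differ in length, as do those of Abcc9 (7499 nt) and Kcnj11 (3142 nt), whose log2 fold changes were -0.37 and 0.04 under the offset. Those of Notch3 and Pdgfrb were -0.47 and -0.08. The ligand-to-receptor ratio, Pdgfb to Pdgfrb, averaged -1.41 ± 0.65 in STAT3cKO and -1.09 ± 0.21 in wild type (SD, n = 3 each; exact p = 0.6), with replicate 6 alone at -2.15. Abcc9 to Kcnj8 averaged 2.81 ± 0.36 in STAT3cKO and 3.24 ± 0.24 in wild type (exact p = 0.3), and Rgs5 to Pdgfrb averaged 2.84 ± 0.10 and 2.96 ± 0.21 (exact p = 0.5). None of the 5 passed, and 3 of them overlapped between the groups.

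**Figure D4:**
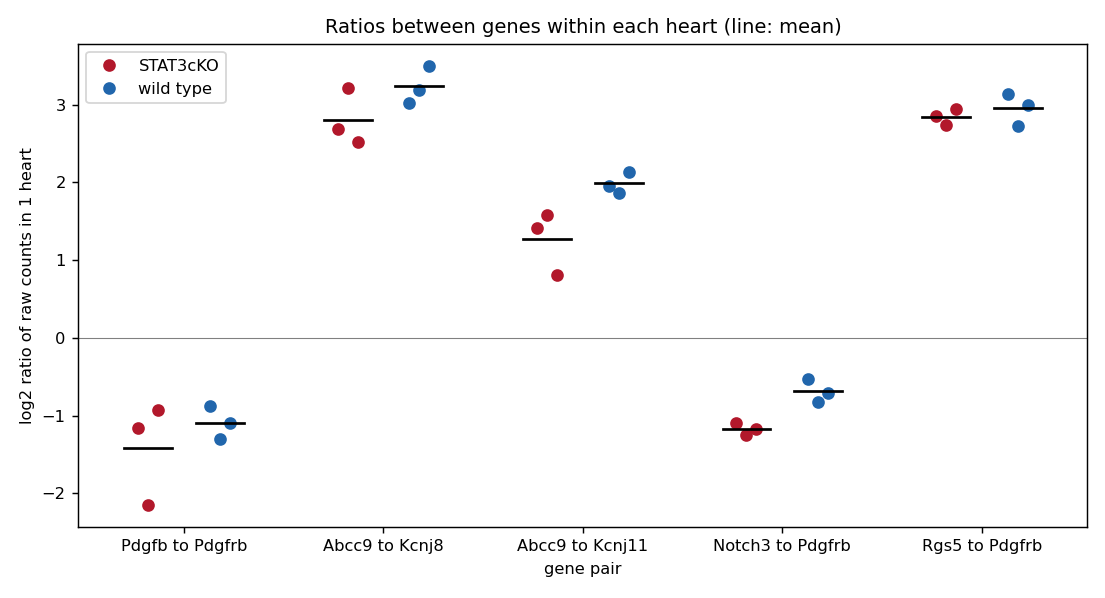
Log2 ratios of raw counts between pairs of genes in each heart, STAT3cKO in red and wild type in blue, with the mean of 3 hearts as a line. The groups separate for Notch3 to Pdgfrb and for Abcc9 to Kcnj11 and overlap for the other pairs.

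Of 27 other genes known from pericytes 26 could be tested, of which 4 fell, against 12.6% of all genes, 0 rose and 22 did not pass, with a median log2 fold change of -0.12. The 4 were Pde5a, which degrades cyclic GMP (-0.72, edgeR adjusted p = 0.00997), Gucy1a1, listed under its older symbol Gucy1a3 and a subunit of the nitric oxide receptor (-0.53, 0.013), the NADH dehydrogenase homologue Ndufa4l2 (-0.60, 0.0157) and the transcription factor Tbx2 (-0.64, 0.0289). Each of these calls was lost without some single heart, at adjusted p of 0.0502 for Pde5a without wild type replicate 3 (and 0.0987, at -0.42, under the offset), 0.0591 for Gucy1a1 without the same heart, 0.0737 for Ndufa4l2 without wild type replicate 1 and 0.136 for Tbx2 without that heart. The number that fell was 2 without wild type replicate 1 and 1 without wild type replicate 3. Over all genes tested, 1340 of 14728 and 1306 of 14834 were lower in these fits. The summed level of the list was 2070 to 2230 CPM in STAT3cKO hearts and 2080 to 2230 CPM in wild-type hearts, of which Des, desmin, also a cardiomyocyte gene, made up 1280 to 1450 and 1250 to 1340 CPM.

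Genes for signalling between endothelium and mural cells were taken from a list of 30, all tested. Besides ligands and receptors the list holds Rbpj, Hey1, Hey2, Hes1 and Cdh2. Of the 30, 14 fell, against 12.6% of all genes, 0 rose and 16 did not pass (median log2 fold change -0.34). The summed level was 1070 to 1150 CPM in STAT3cKO and 1350 to 1490 CPM in wild type. Cdh2 had the highest level of the 30, at 173 ± 12.8 CPM in STAT3cKO and 237 ± 18.4 CPM in wild type. Whole-heart counts do not show from which cells, cardiomyocytes among them, the Cdh2 reads came. The Notch ligand Jag1 fell to 11.9 ± 1.42 CPM in STAT3cKO, against 22.1 ± 0.246 CPM in wild type (SD, n = 3 each; log2 fold change -0.89, edgeR adjusted p = 0.000481). Tek, the endothelial angiopoietin receptor (-0.50, adjusted p = 0.00245), the TGF-beta receptor Tgfbr2 (-0.60, 0.0025) and the receptor Notch1 (-0.52, 0.0032) fell too, of which Tgfbr2 and Notch1 missed the threshold under the offset, at adjusted p of 0.108 and 0.262. Angpt1, the ligand of Tek that mural cells release, chosen after its values were seen, stood at 17.2, 29.5 and 30.7 CPM in STAT3cKO replicates 3, 6 and 91, against 59.5, 62.0 and 51.3 CPM in wild type (log2 fold change -1.16, edgeR adjusted p = 0.00457). With the offset 8 of the 30 were lower and 1 higher, against 7.75% and 10.8% of all genes. Without wild type replicate 1 only 6 were lower, against 1340 of 14728 genes tested.

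Markers of neighbouring cell types also differed between these hearts, and their part in the members' fall was not tested. Of 10 smooth muscle genes 6 fell and 1 rose, against 12.6% and 13.2% of all genes, with a median log2 fold change of -1.77 and a summed level of 376 to 464 CPM in STAT3cKO and 496 to 696 CPM in wild type. Acta2, smooth muscle actin, had the smallest adjusted p of them, at 29.2 ± 2.67 CPM in STAT3cKO and 124 ± 21.1 CPM in wild type (SD, n = 3 each; log2 fold change -2.09, edgeR adjusted p = 2.36e-06). Next by adjusted p came Smtn (0.87), Mylk (-1.20) and Lmod1 (-2.58). Smtn, the gene that rose, made up much of the summed level, at 199 ± 30.9 CPM in STAT3cKO and 109 ± 8.09 CPM in wild type. Of 14 tested endothelial genes 7 fell and 0 rose (median -0.43, summed level 1900 to 2200 CPM in STAT3cKO and 2490 to 2940 CPM in wild type). Those with the smallest adjusted p were Cdh5, Ptprb, Flt1 and Kdr, with log2 fold changes of -1.09, -1.06, -0.82 and -0.77. Under the offset these were at -0.99, -0.60, -0.55 and -0.55. Fabp4 (0.23), Egfl7 (0.23) and Emcn (0.16) lay higher in STAT3cKO and did not pass. Cldn5 was at 1 to 6 counts in STAT3cKO and 8 to 10 in wild type. Macrophage genes fell in 8 of 12 cases (270 to 395 CPM in STAT3cKO and 453 to 567 CPM in wild type), with the smallest adjusted p for Cd163 (-1.68) and Csf1r (-1.09). Schwann and nerve genes fell in 3 of 7 tested (15.5 to 22.1 CPM in STAT3cKO and 27.3 to 37.5 CPM in wild type). The 3, Sox10, Gfra3 and Ngfr, had few reads, at 0.37, 0.341 and 0.128 CPM in STAT3cKO and 2.31, 2.28 and 0.882 CPM in wild type. With a stricter low-count filter 0 genes of this list were lower, against 1653 of 11448 genes tested.

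Of 11 fibroblast genes 2 fell and 1 rose, near the shares of 12.6% and 13.2% over all genes (3820 to 4770 CPM in STAT3cKO and 2850 to 4260 CPM in wild type). The 2 were Col1a2 and Col1a1, of which Col1a1 (edgeR adjusted p = 0.0467) missed the threshold in 6 alternatives, at adjusted p of 0.0524 to 0.179. Dcn rose, and limma-voom called 4 of the 11 higher, against 1936 of 14484 genes tested. Of 14 cardiomyocyte genes 2 fell, Ryr2 and Atp2a2, and 4 rose, the sarcomere genes Myl2, Tnnc1, Tnni3 and Tnnt2 (75800 to 89800 CPM in STAT3cKO and 71100 to 79300 CPM in wild type). Under the offset 0 of the 14 were lower and 3 higher, against 7.75% and 10.8% of all genes. Ryr2 was at -0.08 there, against -0.65 without the offset. The edgeR adjusted p under the offset was 0.646 for Ryr2, 0.0575 for Atp2a2 and 0.102 for Tnni3.

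**Figure D5:**
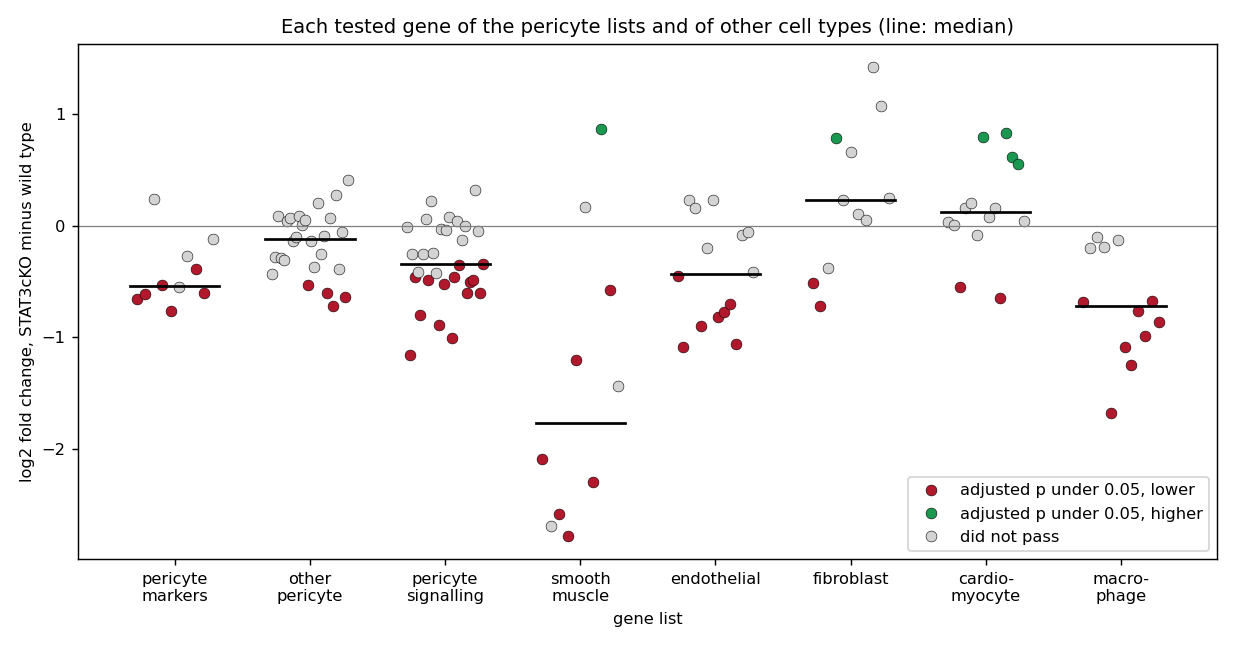
Log2 fold change of each tested gene in 8 lists, STAT3cKO minus wild type, coloured by whether the gene passed edgeR's test, with the median of each list as a line. The median is -0.54 for the pericyte markers, -0.12 for other pericyte genes, -0.34 for pericyte signalling genes and -1.77 for smooth muscle genes. For endothelial genes it is -0.43, for macrophage genes -0.72, for cardiomyocyte genes 0.12 and for fibroblast genes 0.23.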

How the data were processed

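The authors deposited 1 table of raw counts, whole numbers of reads per gene in each of 6 hearts, not normalized. Per the submitters' processing notes HISAT2 and GRCm38 were used. Not given in the sources used here are the strand setting, annotation and program of the counting, or how multimapping reads were treated. Genes were kept by filterByExpr (edgeR 4.0.16, minimum count 10), which left 14484 including all 10 members, given TMM scaling and fitted on genotype alone by edgeR's quasi-likelihood method in its robust form (R 4.3.3), with Benjamini-Hochberg adjustment over all genes tested. Standard errors are the log2 fold change over the root of the F statistic. The offset fit used splines with 5 degrees of freedom on length and GC content of the longest GENCODE M21 transcript (95.9% of genes tested). The fit was tested on simulated data. Alternatives were other scalings and filters, DESeq2 1.42.0, limma-voom (limma 3.58.1) and leaving out each heart. Ratios were tested with SciPy 1.17.1. Coordinates are from RefSeq GRCm38.p6.

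The members, lists and tests were chosen with earlier results of these data known, so a pattern already seen is no independent support. The rule for named genes took all 10 members, Stat3, the channel partners of Abcc9 and up to 4 genes of each other list with the smallest adjusted p. For some lists of other cell types, fewer values than the rule allows are given. Some genes outside the rule are named too, among them Angpt1, Cdh2, Notch2, Des, Fabp4, Egfl7, Emcn, Cldn5, Lipe, Lep and Adipoq.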

Additional observations from a re-analysis of the deposited data

How the results depend on the processing

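Each member that fell kept its direction in all 16 alternatives, and 4 of them kept their call in each. The alternatives reuse the hearts in which these members were called, so this is no independent support. The number of members that fell ran from 4 to 8, with 4 without wild type replicate 1 and with the length and GC offset and 8 without STAT3cKO replicate 6 and with no low-count filter. Leaving out 1 heart gave 4 to 8, and 0 rose in any alternative. Over all genes tested, 1340 of 14728 were lower without wild type replicate 1 and 1123 of 14484 with the offset. The same counts were 1999 of 14857 without STAT3cKO replicate 6 and 2351 of 25015 with no low-count filter. Among the other pericyte genes, 4 fell in the reported fit, 8 with library size alone, 7 with no low-count filter and 1 to 5 when 1 heart was left out. In that list 0 rose in the reported fit, 1 with the length and GC offset and 0 to 1 when 1 heart was left out. Of the genes for signalling between endothelium and mural cells, 14 fell in the reported fit, 8 with the length and GC offset and 6 to 13 when 1 heart was left out, and 1 rose with the offset (Notch2). The number of lower genes over the whole table shifted as well, from 1820 of 14484 in the reported fit to 2714 with library size alone. It ran from 1198 to 1999, of 14728 to 14857 tested, when 1 heart was left out. Higher genes were 1918 in the reported fit, 1563 with the offset and 1237 to 1887 with 1 heart left out. The causes of the shifts in the lists were not tested.

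Scaling by library size alone put the median of all genes at -0.11 (log2), and 2714 genes were lower and 1109 higher, against 1820 and 1918 in the reported fit. No paired analysis was possible because the titles of the groups share only 1 replicate number. Depth limited Higd1b most, with 127 to 179 counts per heart.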
